A study of Mus musculus with 4 samples.

Results

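The MHC class II presentation genes are the genes through which a cell shows peptides from engulfed material to CD4+ T cells. They were taken here as the 10 genes H2-Aa, H2-Ab1, H2-Eb1, H2-DMa, H2-DMb1, H2-Oa, H2-Ob, Cd74, Ciita and Cd86. Every array probe whose RefSeq accession maps to one of these symbols was included, which gave 12 probes for 10 genes among 39429 probes and 20967 named genes. The study exposed mice to diesel exhaust particles (DEP) and asked which genes changed in the middle ear. RNA was measured on 4 two-colour arrays, each carrying 1 DEP_ear extract in the Cy5 channel and 1 CON_ear extract in the Cy3 channel. The mice were male BALB/c of 6 to 10 weeks that breathed DEP 1 h daily over 5 days. They were killed on day 14, when the temporal bone area with the middle ear was taken. The control ears are labelled as having treatment none, and the sources used here give no vehicle or sham exposure for them. The methods count 9 mice in all, and the labels do not say which mouse gave which extract or whether extracts were pooled. The p-values therefore measure only the spread between these arrays, which may be technical.

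The source names of the samples give DEP_ear as Cy5 on every array, whereas the treatment entries of the labels list both treatments under the Cy5 channel. Directions here follow the source names, and a ratio above 0 means a higher signal in the channel labelled DEP. This direction opposes that of the study, since most genes that the study lists as raised had negative ratios and most that it lists as lowered had positive ones. Of 25 genes of the former kind tested here, 24 had a mean ratio below 0, and of 11 of the latter kind, 9 had one above 0. The study also reports qRT-PCR for some of its listed genes, with changes in its own direction. If the channels were the other way round, every sign given here would turn. All 4 arrays have the same dye orientation, so that a dye effect of a probe and a difference between the extracts cannot be told apart.

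A class II molecule is a pair of an alpha and a beta chain. In BALB/c mice, of the H2-d haplotype, H2-Aa and H2-Ab1 encode the pair called I-A, and H2-Eb1 encodes the beta chain of I-E. The pair is assembled on the invariant chain, encoded by Cd74, which blocks the peptide groove and leads the complex to endosomes. There H2-DM, made of H2-DMa and H2-DMb1, removes the last fragment of the invariant chain and edits the peptides, and H2-O, made of H2-Oa and H2-Ob, restrains H2-DM, mainly in B cells. Ciita is the transactivator that switches these genes on, and it works by joining a complex of RFX, CREB and NF-Y factors that sits on a shared promoter element. Cd86 is a costimulatory protein of antigen-presenting cells that binds CD28 on the T cell, and it is not part of the class II pathway itself. Dendritic cells, B cells and macrophages are the main cells that carry these molecules.

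The shared element shows in the promoter sequences of RefSeq (build GRCm38.p6), which are from C57BL/6J mice, whose haplotype is H2-b. The table held promoters for 6 of the 10 genes. For 5 of them the stretch from the X box to the Y box is printed, on the strand of the gene, because this is where the complex that Ciita joins is known to sit. Capitals mark GNAAC, at the start of the X box, and ATTGG, the core of the Y box.
H2-Aa: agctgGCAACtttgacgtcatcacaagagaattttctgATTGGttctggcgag
H2-Eb1: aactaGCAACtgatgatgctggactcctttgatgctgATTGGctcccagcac
H2-DMb1: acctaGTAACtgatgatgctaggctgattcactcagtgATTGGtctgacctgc
H2-Oa: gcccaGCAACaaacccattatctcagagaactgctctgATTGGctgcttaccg
H2-Ob: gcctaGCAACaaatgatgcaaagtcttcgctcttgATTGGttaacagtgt
The stretches lie at chr17:34287857-34287909 on the minus strand for H2-Aa, and on the plus strand at chr17:34305771-34305822 for H2-Eb1, chr17:34153092-34153144 for H2-DMb1, chr17:34092298-34092350 for H2-Oa and chr17:34238813-34238862 for H2-Ob. Between 25 and 28 bases separate the 2 marked words, and the last base of ATTGG stands 39 to 57 bases before the start of the gene. GNAAC followed after 15 to 40 bases by ATTGG, a pattern chosen after these sequences were seen and searched on both strands, was found in 4.23% of the 32851 promoters of 300 bases in the table. Both promoters listed for H2-DMa lack it.

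Further words were searched on both strands of the same promoters. CCAAT, which is ATTGG read on the other strand, was found for 6 of 6 genes and in 37.4% of all promoters. ACNGATG, a word that can overlap the X1 box, was found for 4 genes and in 9.85% of all promoters. In H2-Eb1 and H2-DMb1 it overlaps the marked GNAAC, at 82 and 85 bases before the start of the gene. In H2-Oa and H2-Aa it lies farther out, at 131 and 226 bases before the start and outside the printed stretches, and in H2-Aa it is on the other strand. TGACG, a part of the X2 box to which CREB binds, was found for 1 gene, H2-Aa, and in 20.8% of all promoters. ACNGATG followed after 10 to 35 bases by ATTGG overlaps the first and second of these words, and it was found for H2-Eb1 and H2-DMb1 and in 0.195% of all promoters. The whole promoter of H2-Eb1 (chr17:34305617-34305916, plus strand) is shown with that ACNGATG and that ATTGG in capitals, while a further CCAAT nearer to the start of the gene is left in lower case.
H2-Eb1 promoter: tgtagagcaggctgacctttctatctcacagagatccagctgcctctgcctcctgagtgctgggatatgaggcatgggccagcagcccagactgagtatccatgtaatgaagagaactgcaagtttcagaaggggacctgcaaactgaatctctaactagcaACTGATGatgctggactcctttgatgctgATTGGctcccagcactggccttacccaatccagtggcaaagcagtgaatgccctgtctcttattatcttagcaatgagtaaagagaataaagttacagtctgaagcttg
These words are descriptions of the reference sequence, and binding at them was not measured.

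The arrays were of 1 slide and 1 scan. A spot counted as measured in a channel where the scanner software called it well above background, which held for 66.6% to 70.0% of spots in Cy5 and 60.5% to 69.1% in Cy3. The lowest signal so called was 16.0 to 31.1 in the Cy5 channel, and 20.8 to 36.5 for Cy3. Genes of the middle ear and airway lining such as Bpifa1, Muc5b and Foxj1 were measured throughout, in Cy5 and Cy3 alike, as were all 6 genes listed for that lining, all 10 genes of neurons, all 5 of skeletal muscle and all 6 of neutrophils. The extracts are of mixed tissue, so that a change in the number of cells of a type cannot be told apart from a change of RNA per cell.

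For most class II genes the 2 channels were close to each other in the deposited ratios. With each gene taken by its brightest probe, the mean ratio was above 0 for 9 of 10 genes, against 55.3% of all genes tested and 55.7% of those measured in both channels on all arrays. It was below 0 for 1 gene, Ciita. On the log2 scale it ranged from 0.04 for Cd74 to 0.56 for Cd86, and it was -0.93 for Ciita. The median over the 10 genes was 0.24, against 0.04 over the 17958 genes tested. On single arrays the median was 0.31, 0.23, 0.26 and 0.29 (arrays 1 to 4). The 10 genes were tested together with all other probes, and none passed after adjustment. In limma's moderated test with Benjamini-Hochberg adjustment, 0 of the 31577 probes tested had an adjusted p under 0.05. With each probe's own variance the number was again 0, and an unadjusted p under 0.05 was found for 5858 and 4861 probes in these 2 tests.

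An unadjusted p under 0.05 was found for 6 of the 10 genes, against 16.7% of all genes tested. Of these, 5 were higher in the channel labelled DEP (Cd86, H2-Oa, H2-DMa, H2-Ab1 and H2-Eb1), where 9.19% of all genes tested passed in this direction, and 1 was lower (Ciita), where 7.5% passed. All 10 genes were measured in both channels on every array, and among the 14276 genes of that kind the shares were 12.5% in either direction, 6.65% higher and 5.86% lower. With 1 array left out, 2 or 3 of the 5 passed, where 1810, 823, 898 and 1502 of all genes passed as higher without arrays 1, 2, 3 and 4, against 1650 with every array, and Cd86, H2-Oa and Ciita were the genes that passed whichever array was left out. The ratio was above 0 on all 4 arrays for 5 genes, against 16.2% of all genes tested and 15.4% of those measured fully, and below 0 on all 4 for Ciita, against 10.2%. No gene of the 10 had a mean ratio past 2-fold, a limit that 6.21% of all genes tested and 3.55% of those measured fully passed. With the sign turned, 1 of 10 genes would have a mean above 0, and at the unadjusted level 1 would be higher and 5 lower. The plot of the ratios by array shows these values for every probe.

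**Figure D1:**
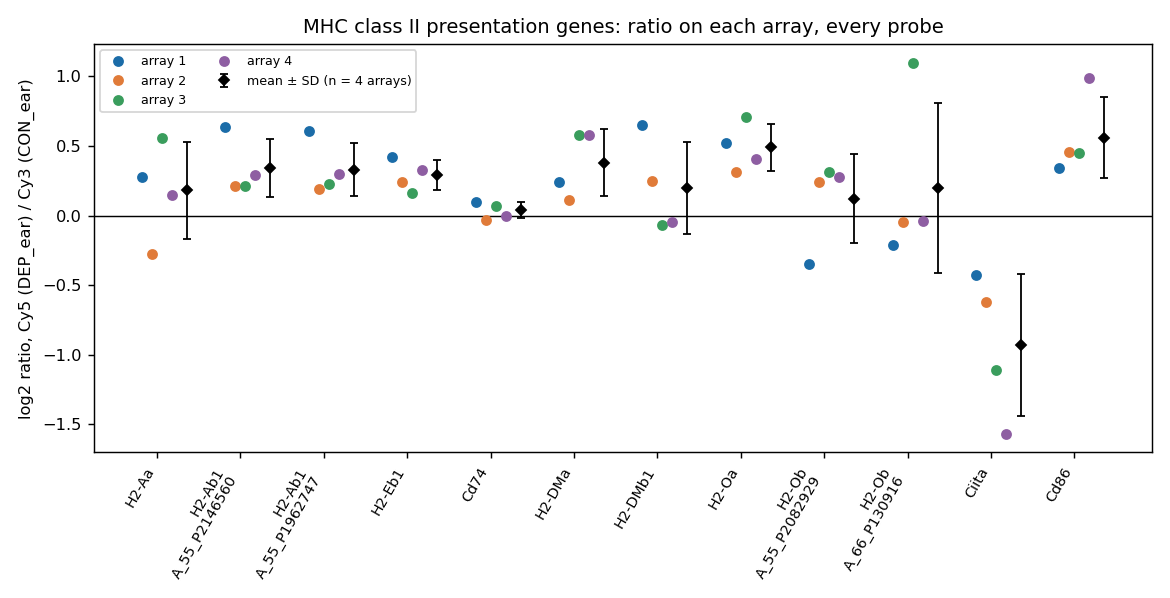
Log2 ratio of Cy5 (DEP_ear) over Cy3 (CON_ear) for the 12 probes of the 10 genes. Coloured points are the 4 arrays and black diamonds with bars are the mean ± SD (n = 4 arrays). Ciita lies below 0 on every array, from -0.43 to -1.57, and the points of Cd74 lie closest together, from -0.03 to 0.10.

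Ciita, the transactivator, had the lower signal with DEP on 4 of 4 arrays. In the channel labelled DEP its processed signal was 55.9, 35.9, 29.1 and 24.6 on arrays 1 to 4, and in the channel labelled control it was 75.5, 55.0, 63.0 and 73.2. The lowest values were those of the DEP channel on arrays 3 and 4, and the channels overlapped only in that the highest DEP value exceeded the lowest control value. The ratios were -0.43, -0.62, -1.11 and -1.57, a mean of -0.93 ± 0.51 (SD, n = 4 arrays) or 1.91-fold lower, and the standard error was 0.22. After adjustment limma gave an adjusted p = 0.165. The exact two-sided sign-flip test of the 4 ratios gave p = 0.125, the smallest that 4 arrays allow. The probe is dim, and the lowest signal of any probe called well above background in the DEP channel was 16.0 on array 3 and 19.2 on array 4. With an added offset of 50 before the logarithm (normexp correction) and loess normalization the mean was -0.33. The array measures Ciita with 1 probe, so that its transcripts, which start at several cell-type-specific promoters, are not distinguished.

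The classical chains had mean ratios of 0.18 to 0.34, in the direction opposite to that of Ciita. After normexp correction and median centring the means of H2-Ab1 and H2-Eb1 were 0.95 and 0.92 (limma's adjusted p = 0.0315 and 0.0269). Under that setting 4121 of the 39429 probes tested had an adjusted p under 0.05, 3514 of them higher. The median over the genes of like brightness was 0.56. H2-Ab1, the beta chain of I-A, had DEP signals of 27960, 19420, 16420 and 16550 and control signals of 17940, 16790, 14220 and 13560. The DEP signal was the higher one on 4 of 4 arrays, with the largest difference on array 1, and the ranges of the channels overlapped. The mean was 0.34 ± 0.21 on the log2 scale (SD, n = 4 arrays), or 1.26-fold (standard error 0.13), and limma's adjusted p = 0.259. The other probe for H2-Ab1 gave 0.33 ± 0.19 and was likewise above 0 on all 4 arrays.

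H2-Eb1, the beta chain of I-E, followed H2-Ab1 closely. Its DEP signals were 26790, 20330, 17240 and 17940 and its control signals 20030, 17160, 15410 and 14230. They differed on every array in the same direction, and the ranges of the channels overlapped. The mean ratio was 0.29 ± 0.11 (SD, n = 4 arrays), or 1.22-fold (standard error 0.11), and limma's adjusted p = 0.256. Within arrays, the log2 ratio of H2-Ab1 minus that of H2-Eb1 was 0.05 ± 0.12, above 0 on 2 of 4 arrays.

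H2-Aa, the alpha chain of I-A, was the least settled of the chains. Its DEP signals were 497, 363, 332 and 304 and its control signals 410, 441, 225 and 274. The channel labelled DEP was lower on array 2 and higher on the other 3. On average the ratio was 0.18 ± 0.35 (SD, n = 4 arrays), with an adjusted p = 0.589 from limma and a 95% interval of -0.25 to 0.61. The class II chains are highly polymorphic, and which of these probes match the H2-d sequence of BALB/c fully was not tested.

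Cd74, the invariant chain, differed least of the 10 genes between the channels in the deposited ratios. Its DEP signals were 13040, 10200, 9036 and 8285, against control signals of 12130, 10400, 8580 and 8265. Both channels were highest on array 1 and lowest on array 4, and within an array they nearly coincided. On average the ratio was 0.04 ± 0.06 (SD, n = 4 arrays), above 0 on 3 of 4 arrays, with an adjusted p = 0.852 from limma. Its 95% interval of -0.22 to 0.30 does not reach 2-fold in either direction. The mean was -0.04 after normexp correction and loess normalization, and 0.49 after normexp correction and median centring (limma's adjusted p = 0.0465), where the median over the genes of like brightness was 0.56.

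**Figure D2:**
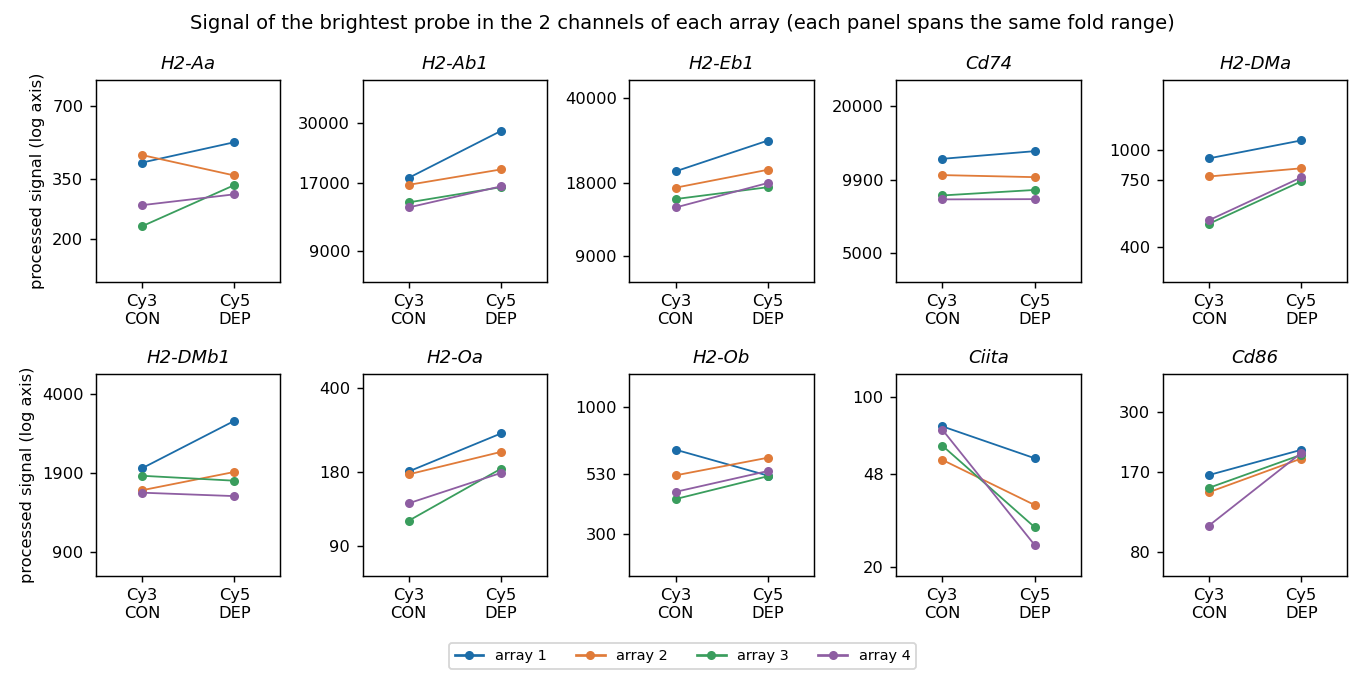
Processed signal of the brightest probe of each gene in Cy3 (CON_ear) and Cy5 (DEP_ear), on log axes that span the same fold range in every panel. Each line joins the 2 channels of 1 array. The lines of Ciita slope down on all 4 arrays and those of Cd86 slope up on all 4, while those of Cd74 are nearly level.

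The genes of H2-DM, the peptide editor, differed in their pattern over the arrays. H2-DMa had DEP signals of 1093, 840, 742 and 770 and control signals of 923, 777, 497 and 514. The DEP signal exceeded the control on 4 of 4 arrays, most on arrays 3 and 4. The mean ratio was 0.38 ± 0.24 (SD, n = 4 arrays), or 1.30-fold (standard error 0.13), and limma's adjusted p = 0.246. H2-DMb1 had DEP signals of 3105, 1915, 1763 and 1524 and control signals of 1983, 1611, 1847 and 1574. It was higher with DEP on arrays 1 and 2 and slightly lower on arrays 3 and 4, so that its ratio of 0.20 ± 0.33 (adjusted p = 0.543 from limma) was smaller than the spread between arrays. H2-DMa minus H2-DMb1 was -0.40 and -0.14 on arrays 1 and 2, and 0.65 and 0.63 on arrays 3 and 4.

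H2-Oa, the alpha chain of H2-O, was above 0 in ratio on 4 of 4 arrays. Its DEP signals were 260, 218, 186 and 179 and its control signals 182, 177, 114 and 134. The DEP value was the higher one on each array, and the ranges overlapped only between 179 and 182. The mean ratio was 0.49 ± 0.17 (SD, n = 4 arrays), or 1.4-fold (standard error 0.12), and limma's adjusted p = 0.166. With 1 array left out it was 0.41 to 0.55, and with normexp correction and loess normalization it was 0.29. Its partner H2-Ob had DEP signals of 523, 620, 520 and 546 and control signals of 668, 524, 419 and 449. The order of the channels turned on array 1, where the control was higher. H2-Ob had a ratio of 0.12 ± 0.32 (adjusted p = 0.692 from limma; 95% interval -0.28 to 0.52). A second, dimmer probe for H2-Ob gave 0.20 ± 0.61 and was below 0 on 3 of 4 arrays. Its mean rests on array 3, with a ratio of 1.1 where the control channel was not well above background, and it was -0.10 without that array.

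Cd86, the costimulatory ligand of CD28, was the gene of the 10 whose channels did not overlap. Its DEP signals were 210, 193, 200 and 203, and its control signals 165, 140, 146 and 102. The DEP values lay within a narrow range, and the lowest of them was above the highest control value, and such a gap in one direction or the other held for 2.87% of all genes tested and 1.26% of those measured fully. The ratios were 0.34, 0.46, 0.45 and 0.99, a mean of 0.56 ± 0.29 (SD, n = 4 arrays; standard error 0.15), or 1.48-fold. After adjustment limma gave an adjusted p = 0.183. The mean ranged from 0.42 to 0.63 with 1 array left out and was lowest without array 4, and with normexp correction and loess normalization it was 0.30.

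Ciita had a lower ratio than the genes it is known to switch on. On arrays 1 to 4 its log2 ratio minus that of H2-Ab1 was -1.08, -0.83, -1.32 and -1.86. Its ratio minus that of Cd74 was -0.54, -0.59, -1.19 and -1.58. The gap had the same sign on 4 of 4 arrays in both cases and was widest on array 4. These pairs were chosen after their values were seen and are given without a test. The gaps are of deposited ratios, and the Ciita probe is dim beside those of H2-Ab1 and Cd74. With normexp correction and loess normalization the means were -0.33 for Ciita, 0.36 for H2-Ab1 and -0.04 for Cd74. The plot of ratio against signal places the 10 genes among all genes measured as fully.

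**Figure D3:**
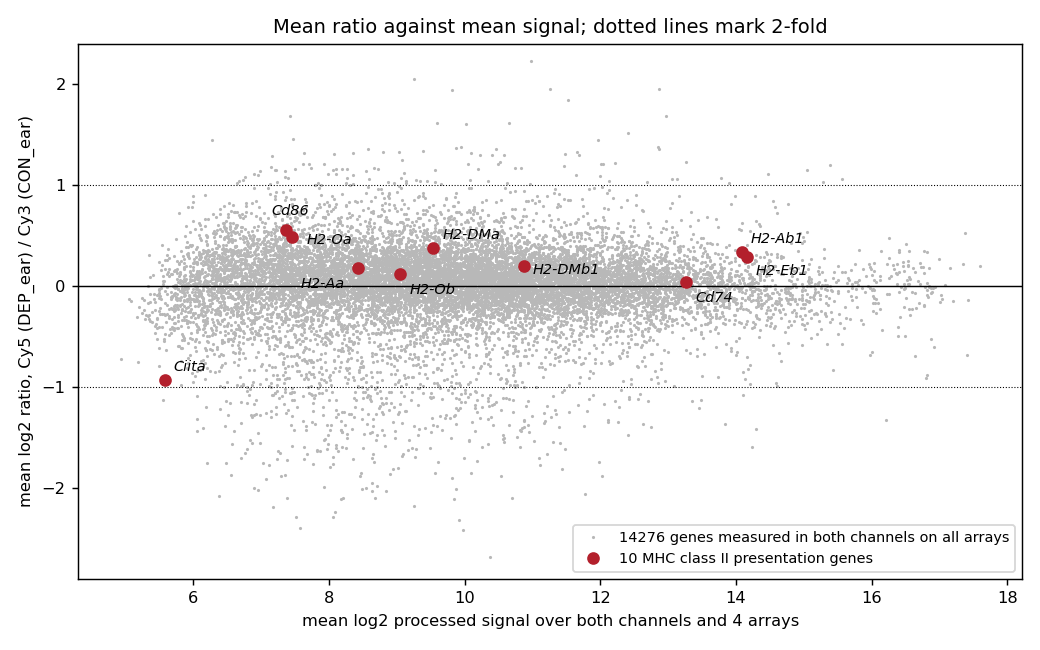
Mean log2 ratio over 4 arrays against mean log2 processed signal. Grey dots are the 14276 genes measured fully, red points are the 10 MHC class II presentation genes, and dotted lines mark 2-fold. Ciita lies at the dim end at -0.93, and H2-Ab1 and H2-Eb1 lie at the bright end at 0.34 and 0.29.

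Likeness to Cd74 was measured as the root mean square difference of the log2 ratios over the 4 arrays, among 14275 other genes measured fully. The 5 genes nearest to Cd74 were Rps13, Prkaa2, Tfip11, Gon4l and Riok1, with differences of 0.021 to 0.030. None of the other 9 class II presentation genes was near the top. H2-Eb1 came first among them with a difference of 0.270 (rank 4829), and Cd86 and Ciita came last with 0.594 and 1.06 (ranks 11186 and 13084). A gene with ratios near 0 on all arrays is near to Cd74 by this measure.

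The rest of the pathway was taken as 36 further genes, of which 33 were tested. Of these 33 genes, 5 had an unadjusted p under 0.05 and were higher in the channel labelled DEP, and 0 were lower, where 9.19% and 7.5% of all genes tested passed in these directions. After adjustment over all probes 0 of the 33 had a p under 0.05 in limma's test. The median ratio was 0.10, with a range of -0.42 to 0.51.

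Among the factors that sit on class II promoters, 2 of 7 passed at the unadjusted level, both higher, against 9.19% of all genes tested. Creb1, which binds the X2 box, had a ratio of 0.51 ± 0.11 (SD, n = 4 arrays) with an adjusted p = 0.145. Nfya, a subunit of the NF-Y factor that binds the Y box, had 0.50 ± 0.10 with an adjusted p = 0.148 from limma. Both were above 0 on 4 of 4 arrays. The other NF-Y subunits, Nfyb and Nfyc, had 0.14 ± 0.31 and -0.05 ± 0.09. Rfxap and Rfxank, subunits of RFX, had 0.16 ± 0.21 and 0.06 ± 0.10. Rfx5, the DNA-binding subunit of RFX, was measured on 3 arrays in Cy5 and on 1 in Cy3, and its ratio is not read.

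The interferon-gamma branch, the classical inducer of Ciita, held 0 of 7 genes past an unadjusted p under 0.05. Over all genes tested 16.7% passed in either direction. Ifng itself was well above background on 1 array in the DEP channel and on 2 in the control channel, and no fold is given for it. Its receptor genes Ifngr1 and Ifngr2 had ratios of -0.07 ± 0.07 and 0.10 ± 0.16, and Irf1, an interferon-induced transcription factor, had 0.16 ± 0.32.

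Among 7 genes of antigen processing, the mean was above 0 for 2 and below 0 for 5, with a median of -0.09, and 1 passed at the unadjusted level as higher, against 9.19% of all genes tested. This was Ifi30, the lysosomal thiol reductase that opens disulphide bonds of antigens, with a ratio of 0.51 ± 0.21 (SD, n = 4 arrays) and an adjusted p = 0.171 from limma, above 0 on 4 of 4 arrays. Ctss, the protease that cuts the invariant chain in antigen-presenting cells, had 0.34 ± 0.52 and was above 0 on 2 of 4 arrays. Lgmn, a lysosomal protease that also cuts the invariant chain, had -0.42 ± 0.38 (adjusted p = 0.290 from limma) and was above 0 on 1 array. The cathepsin genes Ctsl, Ctsb and Ctsd had -0.17 ± 0.23, -0.13 ± 0.12 and -0.09 ± 0.94, and Cst3, a cathepsin inhibitor, had -0.02 ± 0.37. The ubiquitin ligases Marchf1 and Marchf8, which remove class II molecules and Cd86 from the surface, had -0.02 ± 0.23 and 0.17 ± 0.22.

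On the costimulation side, 5 further genes had a median of 0.18, with a mean above 0 for 3 and below 0 for 2. At the unadjusted level 1 of the 5 passed as higher, against 9.19% of all genes tested. This was Icosl, the ligand of ICOS on T cells, at 0.49 ± 0.39 (adjusted p = 0.255 from limma) and above 0 on 3 of 4 arrays. Cd274 had 0.48 ± 1.21, from 2.07 on array 1 to -0.83 on array 4. Cd80, the close relative of Cd86, had -0.08 ± 0.21 and was above 0 on 1 array. Cd28, the T cell receptor of both, had 0.36 ± 0.22 (adjusted p = 0.247), above 0 on 4 of 4 arrays. Ctla4, their inhibitory receptor, did not exceed background by the software's call on the 4 arrays. Among the other class II genes, H2-Eb2 did not exceed background by the software's call on the 4 arrays. H2-DMb2, the close copy of H2-DMb1, was measured on 2 arrays in the control channel, and its ratio is not read. No probe was matched to H2-Ea, the alpha chain of I-E.

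Markers of the cells that carry class II molecules were read beside these values. Of 7 dendritic cell genes tested, 3 passed at an unadjusted p under 0.05, all higher in the channel labelled DEP (Zbtb46 at 0.60 ± 0.32, Cd209a at 0.48 ± 0.18 and Batf3 at 0.27 ± 0.06), against 9.19% of all genes tested. The list had a median of 0.20, with a mean above 0 for 5 genes and below 0 for 2. The latter were Flt3, a receptor of dendritic cell precursors, at -0.49 ± 0.52 and Clec9a, a receptor of a subset, at -0.52 ± 0.64, each above 0 on 1 of 4 arrays. Clec9a was dim, and its Cy5 channel was well above background on 3 of the 4 arrays. Summed over the list, the signal was 1550 to 2130 with DEP and 1310 to 2080 in the control over the arrays. Xcr1, a defining gene of a dendritic cell subset, did not exceed background by the software's call on the 4 arrays. Of 8 macrophage genes tested 1 passed as higher, Adgre1 at 0.53 ± 0.32, against 9.19% of all genes tested. The mean was above 0 for 5 of the 8 and below 0 for 3, with Cd14 lowest at -0.36 ± 0.41. The macrophage list had a median of 0.18 with summed signals of 17500 to 22800 in Cy5 and 14800 to 25300 in Cy3. Of 8 B cell genes 1 passed as higher (Fcer2a, 0.35 ± 0.18) and 1 as lower (Pax5, -0.42 ± 0.33), against 9.19% and 7.5% of all genes tested. Their list median was 0.15, with summed signals of 10600 to 14100 in Cy5 and 8320 to 18300 in Cy3. Cd207, the langerin gene of Langerhans cells, had ratios of 2.69, 0.61, 0.58 and -0.29 on arrays 1 to 4, a mean of 0.90 ± 1.27 (adjusted p = 0.385 from limma), with signals of 80.9 to 671 in Cy5 and 99.1 to 119 in Cy3. It was highest on array 1, whereas of the 10 class II presentation genes 5 had their highest ratio on array 1 (H2-Ab1, H2-Eb1, H2-DMb1, Cd74 and Ciita) and 5 on array 3 or 4 (H2-Aa, H2-DMa, H2-Oa, H2-Ob and Cd86). None of these marker genes had an adjusted p under 0.05. The part of these cells in the class II ratios was not tested.

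On single arrays the dendritic cell genes had medians of 0.20, 0.35, 0.24 and 0.26 (arrays 1 to 4). The macrophage genes were spread more widely, at -0.32, -0.07, 0.33 and 0.65, and so were the B cell genes, at -0.44, 0.19, 0.50 and 0.14. The B cell precursor genes of marrow lay at -0.70, 0.08, 1.56 and 0.89. Neuron genes differed more between the channels, with medians of -2.40, -1.66, -0.75 and 0.25, and all 10 of them had a mean ratio below 0. Summed over the list, the neuron signal was 23200 to 33300 in Cy5 and 25700 to 95900 in Cy3. Their part in the class II ratios was not tested.

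**Figure D4:**
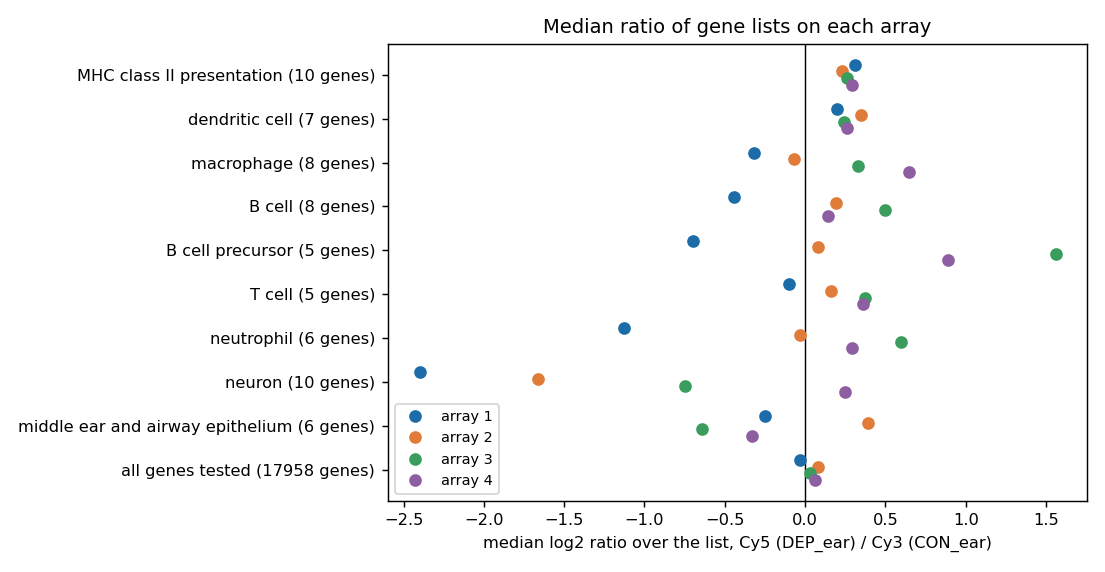
Median log2 ratio of gene lists on each of the 4 arrays, with the number of genes tested in each list. The class II presentation genes lie between 0.23 and 0.31 on all arrays, while the neuron genes range from -2.40 to 0.25.

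The sizes of the ratios depended on how the signals were scaled. Centring each array's deposited ratios on their median left H2-Oa, H2-DMa and Cd86 as the 3 higher genes with an unadjusted p under 0.05, against 7.98% of all genes. Normexp correction with loess normalization left 4 (Cd86, H2-Oa, H2-Ab1 and H2-Eb1), against 8.84% of all genes. After normexp correction and median centring, H2-Ab1, H2-Eb1 and Cd74 reached adjusted p values of 0.0315, 0.0269 and 0.0465 in limma's test, with ratios of 0.95, 0.92 and 0.49. An adjusted p under 0.05 was reached there by 4121 of the 39429 probes tested, 3514 of them higher. At the unadjusted level 7 of the 10 genes were then higher, against 33.6% of all genes. With that scaling the ratio was larger with brightness over all genes. With the fully measured genes split by signal into 10 equal bins, its median was -0.04 in the dimmest bin and 0.56 in the brightest, which holds these 3 genes. With the deposited ratios the medians of these bins were 0.01 and -0.02. The median over all genes moved from 0.04 to 0.19, and the class II genes lay 0.26 above it, compared with 0.21 with the deposited ratios. The direction of Ciita and of Cd86 was kept under all 4 scalings, at -0.96 to -0.33 and 0.30 to 0.56. By the brightest probe, so was that of every other gene of the 10 except Cd74.

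**Figure D5:**
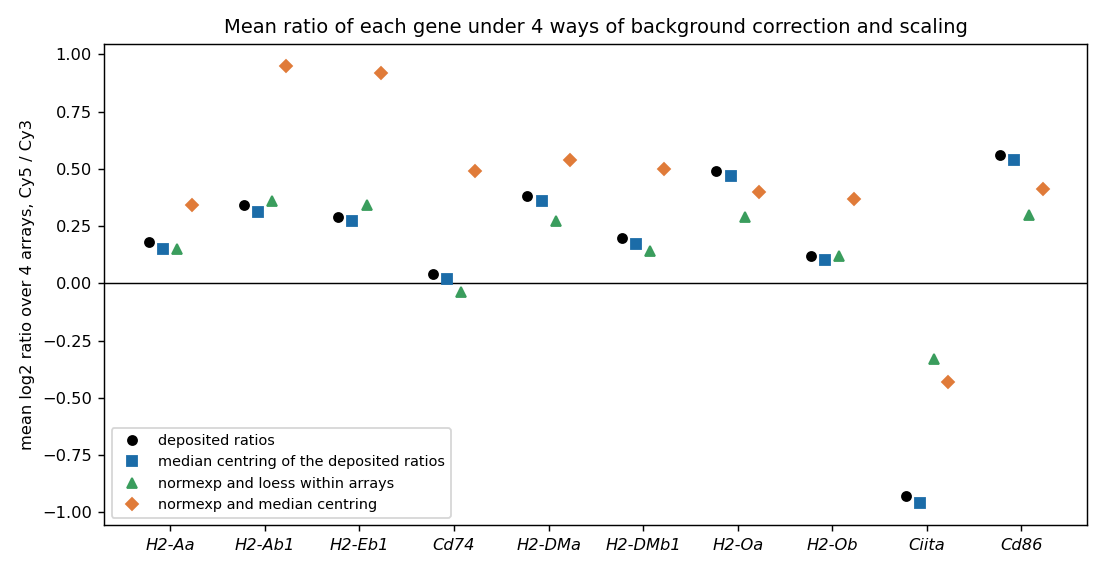
Mean log2 ratio over 4 arrays of each gene's brightest probe under 4 ways of background correction and scaling. H2-Ab1 and H2-Eb1 reach 0.95 and 0.92 with normexp correction and median centring, and Ciita stays below 0 with all 4.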

How the data were processed

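The authors quantified the 4 arrays with the Agilent software Feature Extraction 10.10.1.1, and the scanner output of each array was deposited. The deposited processed intensity is background-subtracted and dye-normalized within the array, and the deposited log10 ratio sets Cy5 against Cy3. A deposited table of the same log10 ratios served as an alternative, and 0 of its columns were left without a sample. Ratios were put on the log2 scale. Control spots, outlier spots (164 to 274 per array) and spots without a ratio (6179 to 8558 of 43020) were left out. Probes with at least 3 ratios were fitted with limma 3.58.1 in R 4.3.3 (prior degrees of freedom 1.98), with Benjamini-Hochberg adjustment over all probes, and the fit was tested on simulated data. Symbols came from RefSeq accessions (27649 of 39429 probes; RefSeq table of GRCm38.p6), with the brightest probe standing for a gene. The promoters printed and searched were of the same build. Normexp used median spot signals with an offset of 50, because the files hold no mean signal. The genes named are the 10 members, the pathway and marker lists, and the 5 genes nearest to Cd74. Members and lists were chosen with earlier results of these data known. The number of arrays limits the precision. Python 3.11.15 and matplotlib 3.10.9 made tables and figures.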

Additional observations from a re-analysis of the deposited data

Results flagged for a closer look

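Of 36 sets of 4 values (the log2 ratio and the log2 signal of each channel for the 12 probes), 2 held an array that stood apart by a gap above Dixon's 95% limit, where chance gives about 1 in 20. The ratio of the brighter H2-Ob probe was -0.35 on array 1 and 0.24 to 0.31 on the others. The ratio of the dimmer H2-Ob probe was 1.1 on array 3 and -0.21 to -0.04 on the others, and its control channel was not well above background on array 3. The probes of H2-Ob thus stood apart on different arrays.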

How the results depend on the processing

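The number of probes with an adjusted p under 0.05 was 0 with the deposited ratios and 4121 with normexp correction and median centring, 3514 of these higher in the channel labelled DEP, and it was 0 in the other alternatives fitted over probes. The median over the 10 genes moved from 0.24 to 0.45 under that setting and lay at 0.24 to 0.32 when 1 array was left out. The number of higher genes with an unadjusted p under 0.05, 5 of 10, was 3 with median centring of the deposited ratios (7.98% of all genes) and 2 to 3 with 1 array left out (2 without replicate 1, 3 or 4, and 3 without replicate 2, where 823 to 1810 of all genes passed, against 1650 with every array). The number of lower genes stayed at 1. The sign turned for Cd74 with normexp and loess (-0.04) and for the dimmer H2-Ob probe with spots required to be well above background in both channels (-0.10), and the mean of this probe was -0.10 without replicate 3 and at most 0.34 without any other array. Causes of these shifts were not tested beyond the brightness values given. Signal over background limits the dimmer H2-Ob probe, whose control channel was not well above background on array 3.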
